A study of Mus musculus with 2 samples.

Results

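The genes described here are the histone cluster genes, that is, the genes whose symbol starts with Hist1h, Hist2h, Hist3h or Hist4h. A search of the gene list by symbol found 67 of them among 32285 genes. They comprise 6 linker histone H1 genes, 18 H2A genes, 18 H2B genes, 12 H3 genes and 13 H4 genes. By GENCODE vM21 on GRCm38, 54 lie on chromosome 13, 10 on chromosome 3, 2 on chromosome 11 and 1 on chromosome 6.

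Primary aortic vascular smooth muscle cells (VSMCs) of C57BL/6 mice, bought from suppliers and used at low passage, were cultured as 4 groups. These were young cells (mice of 12 weeks), old cells (58 to 78 weeks), young cells given 100 nM angiotensin II (AngII), the peptide that raises blood pressure, for 48 h, and old cells transfected with 20 nM siRNA against the mechanosensitive channel Piezo1 (old + siPiezo1). Each group carried its own DNA-tagged antibody (hashtag), and the mix went into 1 droplet library. Captured RNA molecules were counted through unique molecular identifiers (UMIs), so that copies made by PCR are not counted again. With 1 culture per tag, no difference between tags or cell classes was tested, and every interval given covers counting error only.

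A barcode with at least 2218 gene UMIs and 200 genes was taken as a cell, which gave 13045 cells with a median of 7915 UMIs. Cells with a single hashtag above its cutoff numbered 3144 in tag 1, 497 in tag 2, 1500 in tag 3 and 1529 in tag 4, and their median depth ran from 6816.5 UMIs in tag 1 to 10663 in tag 2. Another 5307 cells (40.7%) had no tag and 1068 had more than 1. Hashtag separation was weak in tags 2 to 4, whose own cells had medians of 76, 113 and 67 tag UMIs against 15, 31 and 20 in untagged cells. The tags were taken as young, old, young + AngII and old + siPiezo1 in that order from the numbering of the study's schematic, which does not call them tag numbers. Piezo1 was at 71.6 UMIs per 1000000 gene UMIs (CPM) in tag 1, 89.6 in tag 2, 108 in tag 3 and 86.9 in tag 4. The intervals of tags 2 (82.0 to 97.9) and 4 (82.4 to 91.5) overlapped, and the level of the targeted gene thus gives no check on tag 4, which is named below only as labelled siPiezo1. Of 9 smooth muscle markers, 8 reached 10 CPM in the pool and the mature marker Myh11 was lowest at 4.41 CPM. The summed smooth muscle markers stood at 2942, 3595, 3518 and 1985 CPM in tags 1 to 4. Endothelial, macrophage and epithelial markers summed to 5.35, 8.35 and 4.11 CPM in the pool. The 4 fibroblast markers, 3 of them above 10 CPM, summed to 602 CPM in the pool, against 2961 CPM for the smooth muscle markers. By tag the fibroblast sums were 524, 545, 721 and 748 CPM in tags 1 to 4.

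Histones package DNA into nucleosomes. Each nucleosome core holds pairs of H2A, H2B, H3 and H4, and H1 binds the linker DNA between cores. Most cluster genes are replication-dependent: they are transcribed in bursts when DNA is copied, and their mRNAs end in a conserved stem-loop in place of a poly(A) tail. The stem-loop is bound by the protein Slbp, which steers the 3′ processing, export and translation of the message. Some cluster genes can also give longer, polyadenylated mRNAs, which persist in cells that have left the cycle. The library kit primes on poly(A), so a message without a tail is captured poorly and the counts below are of captured RNA, not of all histone mRNA.

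The stem-loops are shown because they mark which annotated messages contain the replication-dependent end. The search asked for 6 paired bases that open with GG and close with CC, around a loop of 4 bases that begins with TT, in the transcript letters. The pair next to the loop had to be T with A. This search found the element in 44 of the 67 members (65.7%) and in 69 of 21901 coding genes (0.315%) of GENCODE vM21. Only 6 versions occurred, each shown once below for the member with the most UMIs, 5′ to 3′, with the stem and loop in capitals and 6 flanking bases on each side.
Hist1h1c: ccaaaaGGCTCTTTTCAGAGCCaccact
Hist1h4d: accaaaGGCCCTTTTCAGGGCCactacc
Hist1h3e: caaaacGGCTCTTTTAAGAGCCacctcc
Hist1h4i: cttaaaGGCCCTTTTTAGGGCCaccaca
Hist1h4j: cctaaaGGTCCTTTTCAGGACCaccaca
Hist2h2ac: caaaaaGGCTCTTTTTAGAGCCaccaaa
The version of Hist1h1c (chr13:23739512-23739527, plus strand) was in 26 members, none of them an H4 gene. Those of Hist1h4d (chr13:23581950-23581965, plus), Hist1h4i (chr13:22040966-22040981, minus) and Hist1h4j (chr13:21735437-21735452, plus) were in 7, 2 and 2 members, all H4 genes. The Hist1h3e version (chr13:23561903-23561918, minus) was in 6 members and that of Hist2h2ac (chr3:96220418-96220433, minus) in Hist2h2ac alone. All 6 sites lie in the single exon of their gene. Among the members, 4 H1, 11 H2A, 10 H2B, 8 H3 and 11 H4 genes held the element. Of the 23 members without it, 16 had an annotated transcript whose length is divisible by 3. A coding sequence alone has such a length, but a longer transcript can have it too. Hist1h2bq, at 1254 bases and with a poly(A) signal near its end, is among the 16.

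The members drew 83642 UMIs over all cells, and a single H2B gene drew most of them. Hist1h2bc had 43706 UMIs, 52.3% of the histone cluster total, and the first 5 genes held 77.2%. The next were Hist1h1b (RefSeq H1f5) with 7945 UMIs, Hist1h1c (H1f2) with 4842, the H4 gene Hist1h4i with 4274 and the H1 gene Hist1h1e with 3835. A UMI was seen for 64 of the 67 members and at least 100 UMIs for 35, of which Hist1h2ak (109) was the last inside and Hist1h2bn (98) the first outside. Hist2h2aa2, Hist1h2ba and Hist1h2aa had none. The H2A and H3 classes had no such dominant gene: Hist3h2a held 29.7% of the H2A UMIs and Hist2h3c2 21.9% of the H3 UMIs, against 93% of the H2B UMIs in Hist1h2bc.

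Close copies limit what single-gene counts say. Of all 91-base windows, the length of the RNA read, at least 50% were shared with another member in 26 of the 67 members. Among those with 100 UMIs these were Hist1h2br (99.8% shared, with Hist1h2bq among others), Hist1h2ap (92.3%), Hist2h2aa1 (88.3%), Hist1h3i (72.3%), Hist2h3c2 (61.9%) and Hist1h2ab (53.5%), whose values are therefore uncertain, while Hist1h1b and Hist1h1a shared none and Hist1h2bc shared 26.0%. Hist2h2aa2 shared 100% of its windows in the transcript searched, so its lack of UMIs cannot be read as a low level. Hist1h2bq, also at 100%, drew 5 UMIs. The gene model of Hist1h2be overlaps the 3′ part of Hist1h1e on the same strand, and Trim17 overlaps Hist3h2a on the same strand. Reads in the shared parts cannot be told apart, a limit on the values of Hist1h2be, Hist1h1e and Hist3h2a below. Hist1h1e shared 26.0% of its windows with other members.

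Summed over the members, the level was similar between tags 1, 2 and 4 and highest in tag 3. Young cells (tag 1) had 700 CPM (690 to 711) and old cells (tag 2) 728 (706 to 751). AngII-treated young cells (tag 3) had 818 (803 to 832), and the cells labelled old + siPiezo1 (tag 4) 709 (696 to 722). The top place of tag 3 came from Hist1h2bc. Without that gene the sums were 278, 352, 271 and 389 CPM in tags 1 to 4, so that tags 2 and 4 were the higher pair and tag 3 was the lowest. The ratio of tag 3 to tag 1 went from 1.17 (1.14 to 1.20) with Hist1h2bc to 0.975 (0.937 to 1.01) without it. Barcodes of at most 100 UMIs, which mostly hold free RNA, had 805 CPM in all and 364 without Hist1h2bc. The sum over histones in free RNA was therefore as high as in cells, and its part in the levels was not tested.

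**Figure D1:**
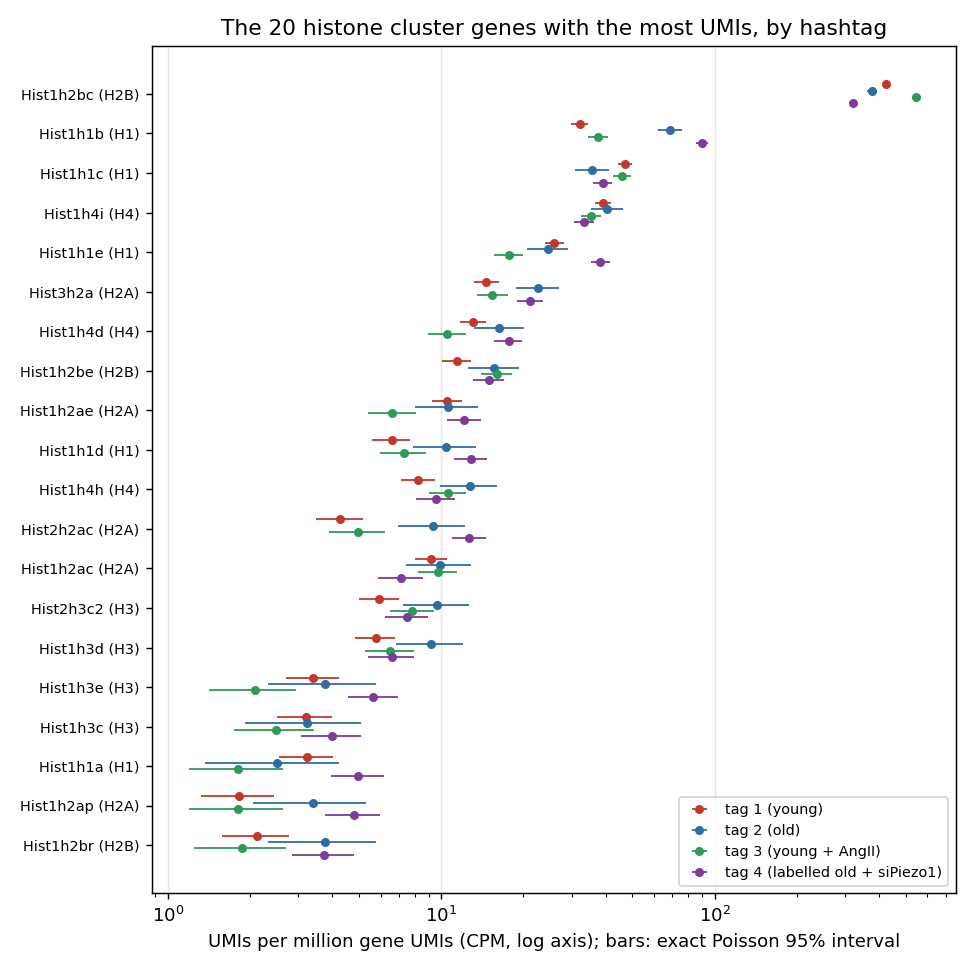
Level of the 20 histone cluster genes with the most UMIs in the cells of each hashtag, as CPM on a log axis with exact Poisson 95% intervals; 1 culture per tag. Hist1h2bc is highest in tag 3 (547 CPM) and Hist1h1b is highest in tag 4 (89.9 CPM), with tag 2 next (68.8 CPM).

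Among the H2B genes, which form the core dimer with H2A, Hist1h2bc (ENSMUSG00000018102, chr13:23684199-23692908, plus strand) stood far above the others. Its level was 423 CPM in tag 1, 376 in tag 2, 547 in tag 3 and 320 in tag 4, and no interval overlapped another. Tag 3 over tag 1 gave a ratio of 1.30 (1.26 to 1.33). Tag 2 over tag 1 gave 0.889 (0.848 to 0.932) and tag 4 over tag 2 gave 0.851 (0.809 to 0.896). The direction of tag 2 over tag 1 turned when a tag had to be at least 3 times the next one, to 1.05 (0.980 to 1.12) for Hist1h2bc and 1.07 (1.01 to 1.15) for the H2B class. The H2B class without Hist1h2bc was higher in tags 2 and 4, at 22.1, 33.7, 26.1 and 34.8 CPM in tags 1 to 4. Hist1h2be had 11.4, 15.6, 16 and 14.9 CPM, and it had the highest ratio of tag 3 over tag 1 of any member compared, 1.40 (1.18 to 1.68). Hist1h2br, whose reads cannot be placed with certainty, had 2.11, 3.77, 1.87 and 3.73 CPM.

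The H1 class, the linker histones, was at 115, 142, 110 and 185 CPM in tags 1 to 4, and its genes did not move together. The class ratio of tag 2 to tag 1 was 1.24 (1.14 to 1.34). When a tag had to be at least 3 times the next one, it was 1.08 (0.948 to 1.23). Hist1h1b (chr13:21779883-21780625, minus strand) was at 32.1 CPM in tag 1, 68.8 in tag 2, 37.6 in tag 3 and 89.9 in tag 4. The old and siPiezo1-labelled cells were thus above both young tags. The ratio was 2.14 (1.89 to 2.42) for tag 2 over tag 1 and 1.31 (1.17 to 1.47) for tag 4 over tag 2. With a tag at least 3 times the next, which left 179 cells in tag 2, these ratios were 1.71 (1.38 to 2.11) and 1.78 (1.44 to 2.22). Hist1h1c showed the reverse for age, at 46.9, 35.7, 45.7 and 39.0 CPM, and its ratio of tag 2 to tag 1 was the lowest of the members compared, 0.760 (0.651 to 0.885). Hist1h1e stood at 26.0, 24.6, 17.7 and 38.2 CPM. It was alike in young and old cells, lowest in tag 3 (ratio to tag 1 of 0.681, 0.588 to 0.788) and highest in tag 4 (ratio to tag 2 of 1.56, 1.29 to 1.89). Hist1h1d had 6.59, 10.4, 7.30 and 12.9 CPM, and Hist1h1a had 3.23, 2.51, 1.81 and 4.97.

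The H2A class was at 46.1, 61.3, 44.3 and 67.5 CPM in tags 1 to 4. Hist3h2a, an H2A gene outside the large clusters, was higher in tags 2 and 4 (22.6 and 21.1 CPM) than in tags 1 and 3 (14.6 and 15.4). Hist2h2ac showed the same split more widely, at 4.27 CPM in tag 1, 9.32 in tag 2, 4.96 in tag 3 and 12.7 in tag 4. Its ratio of tag 2 to tag 1 was 2.18 (1.53 to 3.08), with both groups on average under 10 CPM. With cells kept only when their tag was at least 3 times the next one, which left 179 cells in tag 2, it was 1.19 (0.549 to 2.30). Hist1h2ae instead was low in tag 3, at 10.5, 10.6, 6.63 and 12.1 CPM. Hist1h2ac had 9.20, 9.86, 9.71 and 7.14 CPM, with all intervals overlapping, and Hist1h2ap had 1.82, 3.41, 1.81 and 4.78.

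The H3 class was the least captured of the core histones, at 25.2, 35.7, 25.6 and 32.7 CPM in tags 1 to 4. Hist2h3c2 (5.93, 9.68, 7.83 and 7.51 CPM, with shared reads that make its values uncertain) and Hist1h3d (5.76, 9.14, 6.5 and 6.58 CPM) were highest in tag 2. Their ratios of tag 2 to tag 1 were 1.63 (1.17 to 2.25) and 1.59 (1.13 to 2.20). With a tag at least 3 times the next one, these were 1.64 (0.977 to 2.61) and 1.62 (0.970 to 2.59). The ratios of tag 4 to tag 2 were 0.776 (0.559 to 1.09) and 0.720 (0.511 to 1.03), so the order of these tags is not settled. Hist1h3e had 3.40, 3.77, 2.08 and 5.65 CPM, with the lowest value in tag 3. Hist1h3c had 3.19, 3.23, 2.48 and 3.97 CPM, and all its intervals overlapped.

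The H4 class varied least, at 69.3, 79.6, 64.4 and 69.3 CPM in tags 1 to 4. Hist1h4i was at 39.1, 40.5, 35.4 and 33.4 CPM, with a ratio of tag 4 to tag 2 of 0.824 (0.704 to 0.967) and of tag 2 to tag 1 of 1.04 (0.893 to 1.20). Hist1h4d had 13.1, 16.3, 10.5 and 17.6 CPM and was lowest in tag 3. Hist1h4h had 8.25, 12.7, 10.6 and 9.56 CPM and was highest in tag 2. Its ratio of tag 4 to tag 2 was 0.751 (0.563 to 1.01), so the order of these tags is not settled.

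The number of members that differed between tags was read against all genes. For tag 2 over tag 1, 3 of 10 members with a mean of at least 10 CPM were more than 1.5-fold higher (Hist1h1b, Hist3h2a and Hist1h4h), where 8.23% of 8453 genes were, and none was lower, where 10.3% of genes were. The median ratio of the members was 1.14 and that of all genes 1.02. For tag 3 over tag 1, 0 of 8 members passed the fold in either direction, against 7.11% of genes higher and 7.89% lower, with medians of 1.01 and 1.03. For tag 4 over tag 2, Hist1h1e alone of 12 members was higher and none was lower, against 1.55% and 0.832% of genes, with medians of 1.09 and 1.01. Just outside the 10 CPM minimum lay Hist1h2ac in both comparisons with tag 1 (ratios of 1.07 and 1.05) and Hist2h3c2 in tag 4 over tag 2 (0.776). Just inside lay Hist1h4h, Hist1h4d (0.802 in tag 3 over tag 1) and Hist2h2ac (1.36 in tag 4 over tag 2). The members that passed were chosen by level, and these counts are not a statement on all 67.

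To place the histone genes in the cell cycle, cells were split by the share of their UMIs from 43 S phase genes and 54 G2/M genes, lists that hold no histone cluster gene. A share past the 75th percentile of all cells (0.193% for S and 0.430% for G2/M) was called high. This gave 8696 cells with neither share high, 1087 with only S high, 2175 with both high and 1087 with only G2/M high. The classes are ranges of a score, not types, and 703 and 597 cells lay within 10% of the S and G2/M limits. The classes with only 1 share high also held part of the other list. With only S high, 29 of 41 G2/M genes compared were past 2-fold higher than with neither high, against 3.72% of all genes. With only G2/M high, 18 of 29 S genes were, against 3.46%. In the S high only class, 40.8% of cells were marked as doublets by Scrublet, against 20.7% of the cells with neither share high and 22.1% of those with both high. Without the marked cells the ratio of S high only to neither was 9.73 for Hist1h1b, against 7.95 with them, and 0.984 for the sum of all members.

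The histone cluster genes fell into a set that was higher in cycling cells and a set that was not. In the cells with both shares high, Hist1h1b was at 277 CPM against 8.99 in the cells with neither high, a ratio of 30.8 (28.4 to 33.5). Hist1h2bc went the other way, from 454 CPM with neither high to 363 with only S high, 236 with both high and 176 with only G2/M high. The sum of all members was 667 CPM in both the neither and the S high only classes and 1084 with both high, and it was lowest at 468 in the G2/M high only class. Without Hist1h2bc the sums were 213, 304, 848 and 291 CPM in the neither, S high only, both and G2/M high only classes. Hist1h2bc made up 68.1% of the histone UMIs in cells with neither share high and 21.8% in cells with both high.

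**Figure D2:**
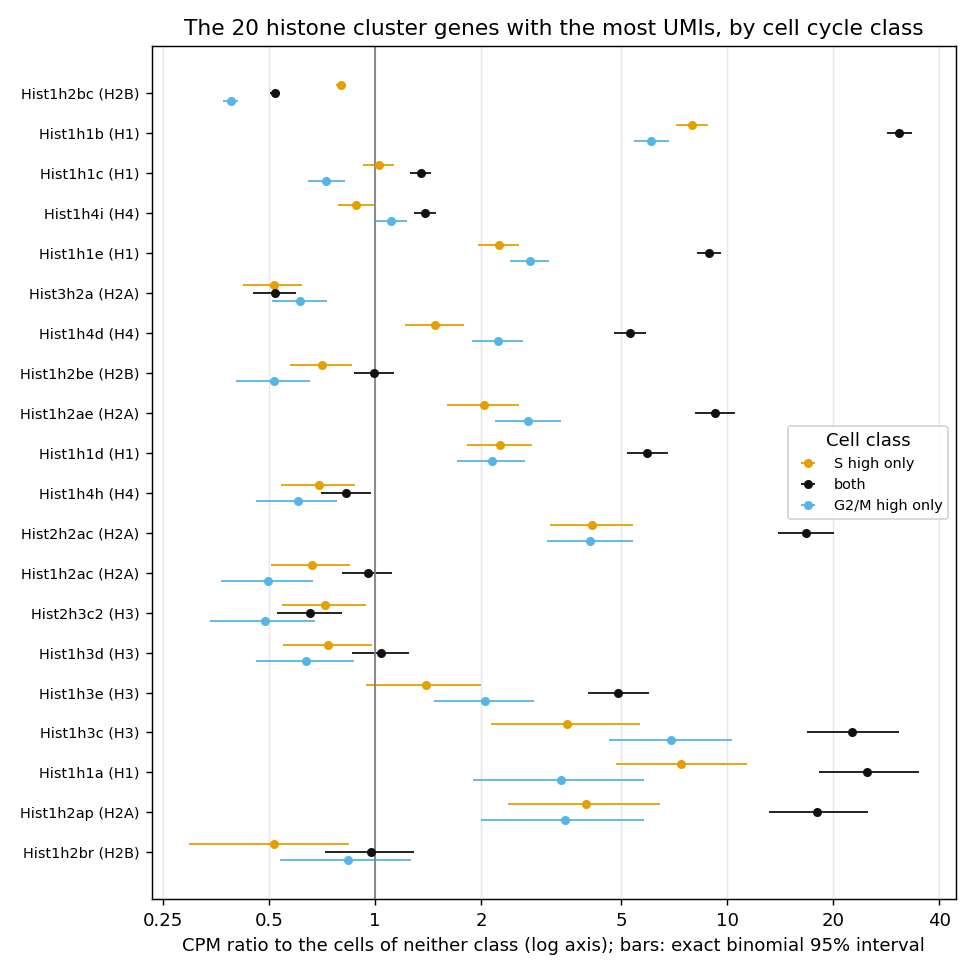
CPM ratio of the S high only, both-high and G2/M high only cells to the cells with neither share high, for the 20 histone cluster genes with the most UMIs, on a log axis with exact binomial 95% intervals and a line at 1. Hist1h1b, Hist1h1a, Hist1h3c, Hist1h2ap and Hist2h2ac lie past 10 in the both-high cells. Hist1h2bc (0.519) and Hist3h2a (0.518) are lowest there and lie below 1 in all 3 classes. Hist1h2be and Hist1h4h also lie below 1 in all 3, at 0.991 and 0.829 in the both-high cells.

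Of 5 H1 genes with 100 UMIs, all except Hist1h1c were at least 2-fold higher in the both-high cells. Among all genes with as many UMIs, 6.68% were. The ratio of both-high cells to cells with neither high was 25 (18.2 to 35.1) for Hist1h1a, 8.89 (8.22 to 9.62) for Hist1h1e and 5.93 (5.19 to 6.79) for Hist1h1d. Hist1h1c had 40.4 CPM with neither high and 54.5 with both high, a ratio of 1.35 (1.26 to 1.44). The H1 class as a whole went from 66.9 to 484 CPM. With only S high, Hist1h1b was at 71.5 CPM (ratio of 7.95) and Hist1h1a at 4.50 CPM (7.40), while Hist1h1e and Hist1h1d had ratios of 2.25 and 2.27. With the classes set at the 90th percentile these were 3.53 and 3.41, and the H1 class went from 2.32 to 3.81.

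Of 8 H2A genes with 100 UMIs, 6 were at least 2-fold higher in both-high cells, against 6.68% of all genes with as many UMIs. Hist2h2ac was at 2.0 CPM with neither high and 33.5 with both high, a ratio of 16.7 (14.0 to 20.1), and Hist1h2ae went from 4.34 to 40.1 CPM, a ratio of 9.24 (8.11 to 10.5). Hist1h2ap (18.0), Hist1h2ab (21.8), Hist1h2ak (22.8) and Hist2h2aa1 (5.51) made up the rest. Hist1h2ac, at 9.60 and 9.13 CPM, was flat, and Hist3h2a was lower, at 20.9 and 10.8 CPM.

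The 8 H2B genes with 100 UMIs were split evenly, with 4 at least 2-fold higher, against 6.68% of all genes with as many UMIs. Hist2h2bb (34.5, 19.9 to 64.6), Hist1h2bm (13.8), Hist1h2bj (11.7) and Hist1h2bh (3.93) were higher in both-high cells, each with under 200 UMIs in the pool. Hist1h2be (0.991), Hist1h2br (0.970) and Hist1h2bg (1.46) were within 2-fold, as was Hist1h2bc (0.519, 0.504 to 0.535). Together the 4 that were higher held 1.58% of the UMIs of those 8 H2B genes. Hist2h2bb overlaps the gene model Gm42743 on the same strand.

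Among the H3 genes, Hist1h3c went from 0.732 to 16.5 CPM (ratio of 22.6, 16.9 to 30.8), Hist1h3i had a ratio of 17.7, Hist1h3e of 4.90 and Hist1h3f of 3.15. Hist1h3d was flat at 1.04. The neighbouring genes of chromosome 3, Hist2h3c1 and Hist2h3c2, were lower, with ratios of 0.360 (0.235 to 0.533) and 0.654 (0.526 to 0.806), the second with the same uncertainty. The H4 genes that were higher had ratios of 7.68 for Hist1h4c, 5.30 (4.77 to 5.88) for Hist1h4d, 3.74 for Hist4h4 and 3.05 for Hist2h4. Hist1h4i (1.39), Hist1h4a (1.06) and Hist1h4h (0.829) were within 2-fold.

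Counted over the 35 members with at least 100 UMIs, 22 were at least 2-fold higher in the both-high cells, where 6.68% of 13714 genes with as many UMIs were. One (Hist2h3c1) was at least 2-fold lower, against 1.48% of genes. The member median was 4.90, and no median of all genes was taken at this minimum. The 13 that were not 2-fold higher nevertheless held 74.0% of the UMIs of the 35. With the stricter minimum of 10 CPM, 6 of 11 members were past 2-fold higher in both-high cells against 5.88% of 8543 genes, none was past 2-fold lower against 0.398%, and the medians were 5.30 and 1.01. With only S high, 2 of 8 members (Hist1h1b and Hist1h1e) were higher against 3.72% of genes and none lower against 0.428%, with medians of 0.954 and 1.01. With only G2/M high, 3 of 8 (Hist1h1b, Hist1h1e and Hist1h4d) were higher against 3.46%, and Hist1h2bc was lower against 0.248%, with medians of 0.917 and 1.03. A gene high only in cycling cells could pass these minimums through that class alone. At the minimum itself, Hist1h2be was the last member inside for the both-high and G2/M high only classes (ratios of 0.991 and 0.515) and Hist1h4d for S high only (1.48), and Hist1h4h the first outside in all 3 (0.829, 0.603 and 0.692).

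**Figure D3:**
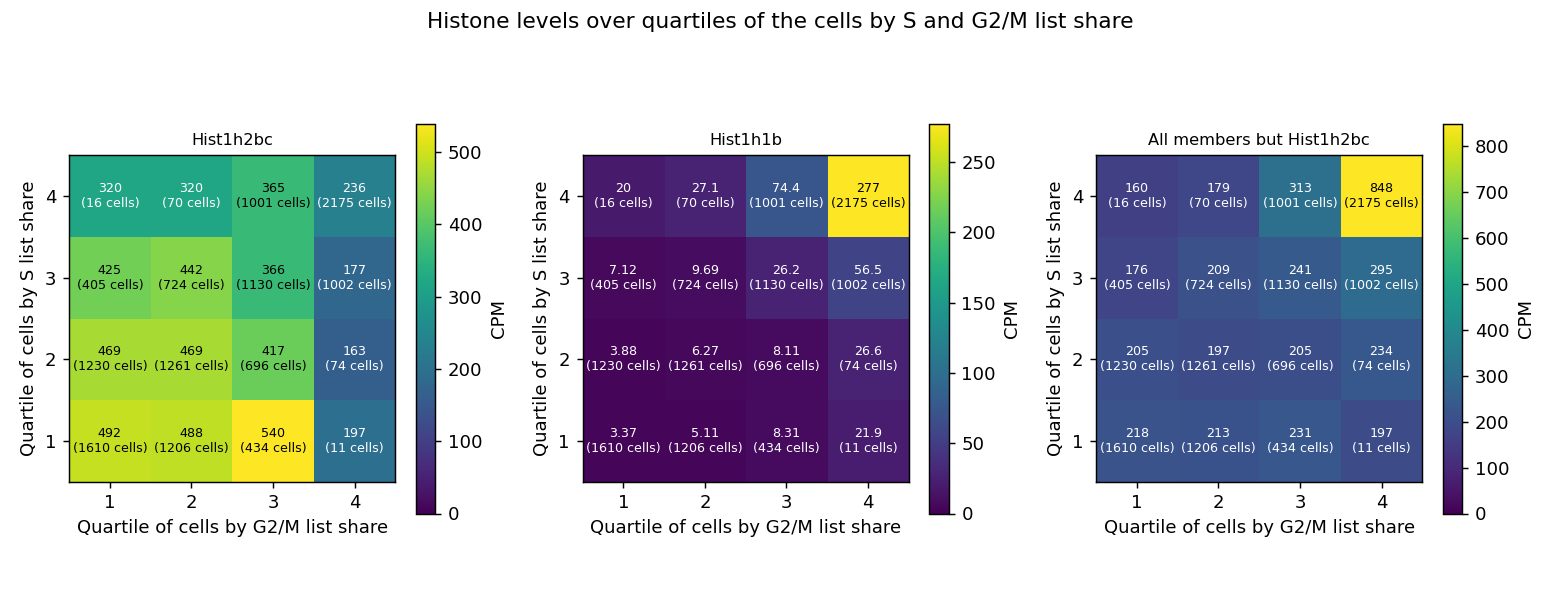
Level of Hist1h2bc (left), Hist1h1b (middle) and all other members summed without Hist1h2bc (right), in CPM, over cells divided into quartiles by S list share (vertical) and G2/M list share (horizontal), with the number of cells in each square. Hist1h1b and the other members peak where both shares are in the top quartile (277 and 848 CPM in 2175 cells), and Hist1h2bc is lowest in the column of highest G2/M share.

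The quartiles gave the same picture at finer grain. Within the top S quartile, Hist1h1b was 74.4 CPM in the third G2/M quartile and 277 in the fourth. Within the top G2/M quartile, Hist1h2bc was 177 CPM in the third S quartile and 236 in the fourth, against 492 CPM in the 1610 cells lowest in both. The 4 squares with 11, 16, 70 and 74 cells hold few UMIs.

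Between the cell cycle classes, shares of cells with a UMI followed the order of the levels for Hist1h2bc and Hist1h1b, though not for every member. Each cell was thinned to 5000 UMIs and the classes were set again from the thinned counts, so thinned and unthinned classes do not hold the same cells. Hist1h2bc was seen in 76.4% of thinned cells with neither share high, 70.1% with only S high, 51.2% with both high and 44.1% with only G2/M high (81.4%, 80.5%, 65.6% and 56.3% unthinned). Hist1h1b was seen in 4.67%, 25.1%, 57.8% and 21.6% of the thinned cells of those classes (5.77%, 35.9%, 66.7% and 24.4% unthinned). By tag, the thinned share for Hist1h2bc was 68.8%, 70.0%, 85.2% and 66.4% in tags 1 to 4, and that for Hist1h1b 10.6%, 14.1%, 12.8% and 19.0%. Tag 3 stood apart for Hist1h2bc. Its unthinned median was 5 UMIs per cell against 2, 3 and 2 in tags 1, 2 and 4, at median depths of 9453.5 UMIs in tag 3 and 6816.5 in tag 1. Thinning left out 2433 cells under 5000 UMIs and kept 2397, 476, 1364 and 1415 cells of tags 1 to 4. The unthinned shares by tag were 75%, 83.1%, 92.3% and 78.9% for Hist1h2bc and 12.9%, 21.9%, 19.3% and 24.6% for Hist1h1b. For Hist1h2bc the share in tag 2 was above that in tag 1 although its level was lower, as was the unthinned share in tag 4, so no order of these tags is read from the shares. No cell type that lacks histones is present to give a background share, and in free RNA Hist1h2bc was at 441 CPM and Hist1h1b at 36.3.

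The tags differed in how their cells fell into the classes. Both shares were high in 13.6%, 15.1%, 14.3% and 19.3% of the cells of tags 1 to 4. After thinning, with the classes set again, they were high in 13.3%, 15.3%, 12.2% and 17.5%. Unthinned, only S was high in 3.21%, 7.65%, 17.5% and 6.47%, and only G2/M in 11.5%, 6.84%, 1.93% and 5.49%. Tag 3 therefore had the most S high and the fewest G2/M high cells. The comparison of tags was repeated within each class.

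**Figure D4:**
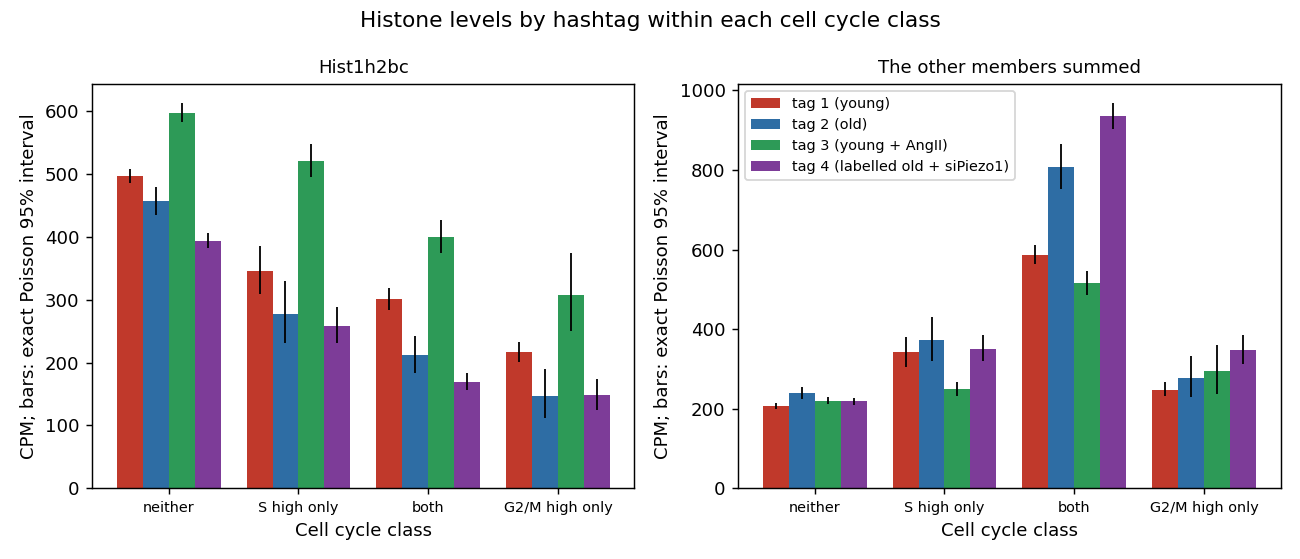
Level in CPM of Hist1h2bc (left) and of all other members summed (right) in the cells of each hashtag within each cell cycle class, with exact Poisson 95% intervals; bars start at 0. Hist1h2bc is highest in tag 3 in all 4 classes, of which G2/M high only holds 29 cells of tag 3. The other members reach 808 CPM in tag 2 and 935 CPM in tag 4 in both-high cells, above the 587 and 516 CPM of tags 1 and 3.

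Inside each of the 4 classes, Hist1h2bc was highest in tag 3 and next in tag 1. In cells with neither share high it was at 496, 456, 597 and 393 CPM in tags 1 to 4, and in both-high cells at 300, 211, 399 and 169. With only S high it was at 345, 277, 520 and 258 CPM, and with only G2/M high at 216, 147, 307 and 148. The intervals of tags 2 and 4 overlapped in these last classes, as did those of tags 1 and 2 with only S high, so these orders are not settled. Both classes were small. Tags 1 to 4 had 101, 38, 262 and 99 cells with only S high, of which Scrublet marked 62.4%, 52.6%, 23.7% and 51.5%. With only G2/M high they had 361, 34, 29 and 84 cells, of which 31.6%, 26.5%, 62.1% and 34.5% were marked. The ratio of tag 3 to tag 1 was 1.20 (1.16 to 1.24) in the first class and 1.33 (1.22 to 1.45) in the second. When each tag was weighted to the class mix of the pool, it was 1.25, against 1.30 unweighted.

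The difference of Hist1h1b between tags 1 and 2 was large in the cycling cells. In both-high cells the young tags 1 and 3 had 127 CPM (116 to 139) and 151 CPM (135 to 168), and the old tags 2 and 4 had 304 CPM (270 to 340) and 333 CPM (314 to 353). The ratio of tag 2 to tag 1 was 2.39 (2.06 to 2.77) there and 1.22 (0.770 to 1.87) in cells with neither share high, where the levels were 6.18, 7.52, 9.25 and 9.87 CPM. The difference between these 2 ratios was not tested. For tag 4 over tag 2 the ratio in both-high cells was 1.10 (0.965 to 1.25), against 1.31 over all cells and 1.15 at the class mix of the pool.

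Other members differed between tags by class. Hist2h2ac in both-high cells was at 13.9, 35.9, 20.6 and 43.9 CPM in tags 1 to 4, a ratio of tag 2 to tag 1 of 2.59 (1.64 to 4.04). Hist1h1e in both-high cells was at 73.9, 79.0, 59.1 and 123 CPM, with tag 4 above tag 2 by 1.56 (1.22 to 2.01). Hist3h2a differed in cells with neither share high, at 15.6, 28.2, 17.8 and 27.9 CPM, and in both-high cells its intervals overlapped. Hist1h4i was lower in tags 2 and 3 in both-high cells, at 58.7, 31.8, 29.8 and 46.2 CPM. The H3 class in cells with neither share high was 20.1, 30.9, 23.9 and 25.6 CPM, and the H1 class in both-high cells 291, 464, 274 and 559.

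Grouped by the split above, the 22 members that were higher in both-high cells summed to 119, 175, 107 and 225 CPM in tags 1 to 4. The other 13 without Hist1h2bc summed to 150, 168, 155 and 151 CPM, a narrow range. In both-high cells the 22 genes reached 375, 640, 363 and 744 CPM in tags 1 to 4, and with neither share high 53.1, 51.0, 45.4 and 56.3. The groups were formed from the cycle ratios of these same cells, so the values are a description.

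Members were also grouped by their annotated 3′ end. The distance from the stem-loop to the annotated transcript end was 100 bases or more in 22 members, which held 30.5% of the histone UMIs, and under 100 bases in another 22, which held 5.31%. The 23 members with no stem-loop in the annotated transcript, Hist1h2bc (1156 bases, spliced) and Hist1h1b (743 bases) among them, held 64.2%. Among genes with 100 UMIs, the median ratio of both-high to neither-high cells was 3.05 over 19 genes with a long extension, 15.3 over 8 with a short one and 20.2 over 8 without the element. Genes under 2-fold numbered 9, 1 and 3 in these groups. Hist1h4h, with 46 bases after the stem-loop and a ratio of 0.829, was the short one under 2-fold. The rank correlation of extension length with this ratio was -0.54 over 27 genes and that with total UMIs 0.57 over 44 genes. Both are descriptions, since the genes share a library, similar sequences and a poly(A)-primed chemistry. A poly(A) signal (AATAAA or ATTAAA) lay in the last 50 bases of 16 members and of 72.2% of coding genes.

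**Figure D5:**
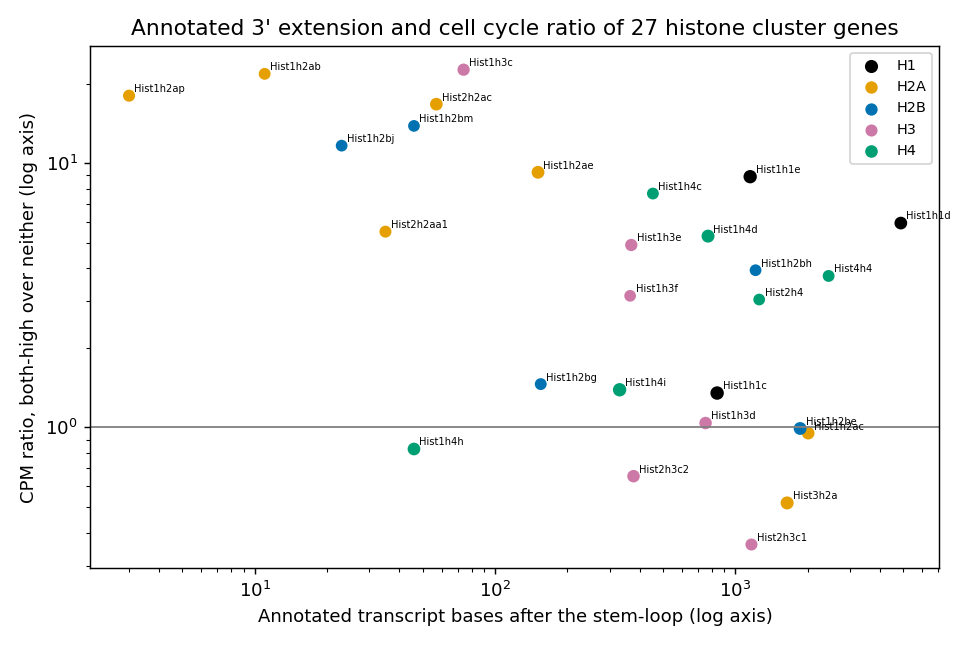
Annotated transcript bases after the stem-loop against the CPM ratio of both-high cells to cells with neither share high, both on log axes, for the 27 members with the element and at least 100 UMIs; colour gives the histone class and a line marks a ratio of 1. Of the genes with under 100 bases, all but Hist1h4h lie above 5, and the genes below or near 1 otherwise have long extensions.

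The promoters of members that were higher together in cycling cells are shown for Hist1h1b and for the H2A gene Hist2h2ac, both more than 10-fold higher in both-high cells. The RefSeq promoter table (GRCm38.p6, 250 bases before to 50 after the gene start) matched 62 members, and Hist1h2bc was not among them. Capitals mark 3 motifs on either strand (the CCAAT box, the TATA box letters TATAA and the octamer ATTTGCAT), and overlapping matches run together.
Hist1h1b, chr13:21780576-21780875, minus strand: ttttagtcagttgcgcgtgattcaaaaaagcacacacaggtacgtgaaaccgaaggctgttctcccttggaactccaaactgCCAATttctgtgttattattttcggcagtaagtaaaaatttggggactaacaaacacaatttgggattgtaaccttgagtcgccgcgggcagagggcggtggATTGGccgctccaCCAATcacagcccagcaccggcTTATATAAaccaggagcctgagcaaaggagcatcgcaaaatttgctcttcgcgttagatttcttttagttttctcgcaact
Hist2h2ac, chr3:96220831-96221130, minus strand: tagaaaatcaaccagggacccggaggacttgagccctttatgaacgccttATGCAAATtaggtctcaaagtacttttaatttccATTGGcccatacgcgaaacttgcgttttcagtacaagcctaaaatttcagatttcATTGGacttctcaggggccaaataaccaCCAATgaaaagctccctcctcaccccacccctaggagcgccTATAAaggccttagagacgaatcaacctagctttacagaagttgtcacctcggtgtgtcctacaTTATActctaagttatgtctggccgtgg
CCAAT, the letters bound by the factor NF-Y, was in 53 of the 62 member promoters (85.5%) and in 37.9% of 27025 promoters of the same length. TATAA was in 50 (80.6%) and in 25.5% of all promoters. The octamer ATTTGCAT, the letters bound by POU factors such as Oct-1, was in 14 (22.6%) and in 1.75% of all. All 14 were H2A (7) and H2B (7) genes, and no H1, H3 or H4 promoter held it. Promoters of neighbouring genes can overlap, and the same match is then counted for both genes. For the octamer this is so in the pairs Hist1h2ae and Hist1h2bg, Hist1h2ah and Hist1h2bk, and Hist1h2aa and Hist1h2ba. The CCAAT and TATAA counts also include such shared matches. A match is a run of letters and says nothing of binding in these cells.

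Genes that work with histones are given for comparison. The 10 replacement variants, most of which are made through the cycle from polyadenylated messages, summed to 2877 CPM in tag 1, 4095 in tag 2, 2541 in tag 3 and 3915 in tag 4, several times the cluster genes. H2afz, the H2A.Z gene, was at 805, 1508, 765 and 1201 CPM, and H2afj at 211, 472, 291 and 414. For tag 2 over tag 1, 3 of 10 variants were past 1.5-fold higher (H2afz, H2afj at 2.24 and H2afy2 at 1.70), against 8.23% of all genes. The linker variant H1f0 was lower (0.465), as were 10.3% of all genes. For tag 3 over tag 1, none was higher, against 7.11% of all genes. The 2 that were lower, against 7.89%, were H2afv (0.639) and H1fx (0.652). For tag 4 over tag 2 none passed, against 1.55% of all genes higher and 0.832% lower. In both-high cells 5 of 10 were past 2-fold higher (H2afz, H2afx, H2afv, H2afy2 and H1fx), against 5.88% of all genes. H3f3b, an H3.3 gene, went from 942 CPM with neither share high to 1405 in both-high cells. With only S high, H1fx alone was past 2-fold higher, against 3.72% of all genes. With only G2/M high the same 5 as in both-high cells were, against 3.46%.

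Of 13 genes fixed for histone mRNA transcription and processing, 12 symbols were in the file and 11 reached 10 CPM. None passed 1.5-fold for tag 2 over tag 1, where 8.23% of all genes were higher and 10.3% lower. The same held for tag 4 over tag 2, against 1.55% and 0.832%. For tag 3 over tag 1, 2 of 11 were higher, against 7.11% of all genes, and none was lower, against 7.89%. The 2 were Slbp, the stem-loop binding protein (51.3 CPM in tag 1 and 82.4 in tag 3, ratio of 1.61), and Eri1, an exonuclease that trims histone mRNA ends (1.56). Slbp was at 39.8 CPM with neither share high and 157 with only S high, although Slbp and Casp8ap2 are themselves in the S list and so helped to set the classes. Beside these, Npat, the coactivator of cluster transcription (20.9 and 44.8 CPM), Lsm11, a subunit of the snRNP that cleaves histone pre-mRNA (9.61 and 19.8 CPM), and Eri1 (18.9 and 47.2 CPM) were past 2-fold in S high only cells. Among all genes 3.72% were past 2-fold higher in S high only cells. In both-high cells 4 of 11 passed (Slbp, Casp8ap2, Eri1 and Lsm11), against 5.88% of all genes. None did with only G2/M high, against 3.46%.

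Among 12 histone chaperones and remodellers, Daxx, the H3.3 chaperone, was at 28.2, 13.6, 15.9 and 14.4 CPM in tags 1 to 4. It alone was past 1.5-fold lower in tag 2 over tag 1 (0.484, 11 genes compared) and in tag 3 over tag 1 (0.564, 12 compared). Among all genes 10.3% and 7.89% were that much lower. Asf1b (1.54), the CAF-1 subunit gene Chaf1a (1.61) and the remodeller Hells (1.94) were past 1.5-fold higher in tag 3 over tag 1, where 7.11% of all genes were. No gene of the list passed for tag 4 over tag 2, against 1.55% of all genes higher and 0.832% lower. With only S high, 6 of 12 were past 2-fold higher, against 3.72% of all genes. With both high 8 of 12 were, against 5.88%, including the FACT subunits Ssrp1 (2.09) and Supt16 (2.04). With only G2/M high, 4 of 11 passed, Nasp among them, against 3.46% of all genes. Asf1b had the highest ratio in both-high cells, 10.4 (9.12 to 11.9). Chaf1b, Hells and Nasp are in the S list and so helped to set the classes. All of them are counted among the 6 and the 8 above, which are therefore not independent of the classes.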

How the data were processed

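The authors deposited raw UMI counts, produced by Cell Ranger 4 per the file headers, without a filter on cells: 138733332 gene UMIs and 12779836 hashtag UMIs over 2472397 barcodes. The build and annotation they used are not stated. Transcripts, coordinates and stem-loops were looked up by Ensembl identifier in GENCODE vM21 (GRCm38), and promoters in RefSeq (GRCm38.p6). The study's notes also name Seurat, which was not used here.

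A cell had at least 200 genes and 2218 gene UMIs (0.1 of the 99th percentile among the 10000 deepest barcodes). A tag was given when only its hashtag passed its cutoff of 36, 52, 61 or 41 UMIs (tags 1 to 4). Levels are UMIs summed over cells per 1000000 gene UMIs (CPM) with exact Poisson 95% intervals, ratios have exact binomial 95% intervals, and shares of cells were repeated after thinning to 5000 UMIs. With 1 culture per tag, no test between tags or cell classes was run. The code for the ratios and their intervals was checked beforehand on simulated counts. A ratio counted as past the fold at 1.5 between tags and 2 between cell classes, where the mean of both groups was at least 10 CPM. Scrublet (scanpy 1.11.5, expected rate 0.1) marked 3058 cells (23.4%) as doublets, too many for that rate, and these cells stayed in. Python 3.11.15, numpy 2.4.6, scipy 1.17.1 and pandas 2.3.3 were used.

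Genes named are the 20 members with the most UMIs, the highest of each histone class, the 3 highest and 3 lowest ratios of each comparison of tags, the members at each minimum and the comparison lists. Other members with at least 100 UMIs, and Hist1h4j for its stem-loop, were named after their values were seen. The members and lists were chosen with earlier results of these data known. Of the 13 processing genes, Symk matched no symbol. Alternatives were other tag rules, a minimum of 5000 UMIs, thinning, removal of marked doublets, CPM without mitochondrial UMIs, a 90th percentile for the classes and sums without Hist1h2bc.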

Additional observations from a re-analysis of the deposited data

How the results depend on the processing

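Without Hist1h2bc the summed histone level gave a ratio of 1.27 for tag 2 over tag 1, 0.975 for tag 3 over tag 1, which reversed its direction, 1.11 for tag 4 over tag 2 and 1.43 for S high only over neither. When a tag had to be at least 3 times the next one, which left 179 cells in tag 2 and 482 in tag 4, the sums gave 1.10 for tag 2 over tag 1 and 0.905 for tag 4 over tag 2, and the H2B class and Hist1h2bc reversed for tag 2 over tag 1 (1.07 and 1.05). Thinning gave 1.20 for tag 3 over tag 1 and 0.935 for tag 4 over tag 2. With the 90th percentile for the classes, S high only over neither was 1.44, and Hist1h4i (1.11) and Hist1h3d (1.09) reversed. The cause was not tested for any of these. The remaining values that moved by over 1.5 times follow. With a tag at least 3 times the next, tag 2 over tag 1 was 1.19 for Hist2h2ac, 0.633 for Hist1h3c, 1.19 for Hist1h1a and 2.71 for Hist1h2br, and tag 4 over tag 2 was 2.44, 2.03 and 0.644 for Hist2h2ac, Hist1h3c and Hist1h2br. Thinning gave 0.544 for Hist1h3c and 0.420 for Hist1h1a in tag 2 over tag 1, 0.562 for Hist1h2ap in tag 3 over tag 1, 4.26 for Hist1h1a and 0.957 for Hist1h3e in tag 4 over tag 2, and 0.431 for Hist1h2ac and 0.318 for Hist1h2br in S high only over neither. Without Scrublet doublets Hist1h1a was 3.03 in tag 4 over tag 2 and Hist1h2ap 2.52 in S high only over neither. The 90th percentile gave, for S high only over neither, 3.81 for the H1 class, 2.23 for H2A and 1.81 for H3, and 3.53 for Hist1h1e, 3.41 for Hist1h1d, 4.17 for Hist1h2ae, 2.65 for Hist1h4d and 2.41 for Hist1h3e. Of 575 values of single members and classes under all alternatives, 517 stayed within the interval of the main value and 54 moved outside it. Another 4, named above, crossed 1 from a main interval that excluded 1 and were counted as reversed. Some of the 517 and of the 54 also crossed 1, from a main interval that held 1. Examples are Hist1h1a in tag 2 over tag 1 (0.776, and 1.19 with a tag at least 3 times the next) and Hist1h1d in tag 4 over tag 2 (1.24, and 0.886 thinned). Giving each cell the tag with the highest normalised hashtag count, an alternative chosen after seeing the data that moved 83 cells, gave 1.04, 1.16 and 0.966 for the 3 sums. No paired analysis was possible because each tag is 1 culture and the labels number no replicates. Depth limits the members under 100 UMIs, for which no comparison is given.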

Other observations

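The 5307 cells without a hashtag, which enter no comparison of tags, had a summed histone cluster level of 730 CPM (722 to 739), and the 1068 cells with more than 1 hashtag had 685 CPM (671 to 699). Hist1h2bc made up 42.8% of the histone UMIs of the cells without a tag, against 60.4%, 51.6%, 66.9% and 45.1% in tags 1 to 4 and 58.0% in the cells with more than 1 tag. The 22 members that were at least 2-fold higher in both-high cells summed to 263 CPM in the cells without a tag, above the 225 CPM of tag 4. Median depth was 6968 UMIs in the cells without a tag and 12146 in those with more than 1.

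In the barcodes of at most 100 UMIs, some members stood higher than in any tag. Hist2h2aa1 was at 17.7 CPM there, against 1.66, 2.33, 1.54 and 2.86 CPM in tags 1 to 4, and Hist1h2ap was at 7.16 CPM against 1.82, 3.41, 1.81 and 4.78. Hist4h4 was at 6.20 CPM against 2.16, 2.33, 1.74 and 1.86. Hist2h2aa1 and Hist1h2ap share most of their 91-base windows with other members (88.3% and 92.3%). Hist1h2bc, at 441 CPM, lay between the values of tags 1 and 3.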
